A study of Mus musculus with 13 samples.

Results

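The 10 genes described here, Atf4, Ddit3, Trib3, Sesn2, Asns, Phgdh, Psat1, Cth, Chac1 and Gdf15, belong to the response of cells to a shortage of amino acids, which runs through the transcription factor ATF4. They were taken by symbol from a table of 54532 genes measured by RNA sequencing in inguinal white adipose tissue, a fat pad under the skin of the groin, of individual mice. Ddit3 was listed under 2 identifiers, of which the one with the higher mean was used, and the other (ENSMUSG00000116429) was listed at 0 in each library. The tissue came from 3 groups of mice, each fasted for 12 h. SF_HPD held 5 mice with fragmented sleep that ate a high-protein diet, in which protein gave 50%, fat 12% and carbohydrate 38% of the calories. SF_ConD held 5 mice with fragmented sleep on normal chow, and SC_ConD held 3 mice with normal sleep on normal chow. The sources used here state no strain, sex or age and no length of the sleep and diet treatments. There was no group with normal sleep on the high-protein diet, so the diet can be compared only under sleep fragmentation. All 10 genes were among the 14421 tested, which were those with 3 or more libraries at 1 FPKM or above. FPKM is a level per length of transcript, so it can be compared between genes.

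When amino acids run short, uncharged transfer RNAs activate the kinase GCN2 (gene Eif2ak4), which phosphorylates the translation initiation factor eIF2. Endoplasmic reticulum stress, viral RNA and lack of haem act on eIF2 through other kinases. Phosphorylated eIF2 lowers protein synthesis as a whole but raises translation of the Atf4 mRNA, so ATF4 protein can increase without a change in its transcript. ATF4 then switches on genes for amino acid synthesis, amino acid uptake, transfer RNA charging and, when stress lasts, for its own restraint and for cell death. Its target genes often carry a composite C/EBP-ATF site, which ATF4 binds together with a C/EBP partner.

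The letters TGATGNAA of that composite site were searched on both strands in RefSeq promoter windows of mouse build GRCm38.p6, each reaching from 250 bases before to 50 bases after a RefSeq transcription start. Of the 10 genes, 9 had such a window (Cth had none in the table), and Asns, Trib3 and Chac1 held a match. Of all 32851 windows 3.97% held a match, and 4.51% of the 27025 genes had one in at least 1 window. The 3 matches are shown because ATF4 acts on its target genes through sites of this kind, each read 5′ to 3′ along the gene with the match in capitals. In Asns (chr6:7693214-7693243, minus strand) the match lay on the strand of the gene, from 23 to 16 bases before the RefSeq start, which is 45 bases inside the gene as the deposited table bounds it, so that the match lay 22 to 29 bases after the table's start. In Trib3 (chr2:152344028-152344057, minus strand) it lay on the opposite strand, 14 to 21 bases after the RefSeq start, which is 28 bases upstream of the table's, so that it lay 14 to 7 bases before the table's start. In Chac1 (chr2:119351038-119351067, plus strand) it lay on the opposite strand, from 193 to 186 bases before the RefSeq start and upstream of the table's start as well.
Asns: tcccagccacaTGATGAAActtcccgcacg
Trib3: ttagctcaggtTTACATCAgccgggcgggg
Chac1: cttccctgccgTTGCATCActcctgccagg
In the other genes of the response the same letters were found in 5 of 7 aminoacyl-tRNA synthetase genes with a window (Aars, Gars, Iars, Tars and Yars) and in 5 of 11 further regulators and secreted proteins (Atf3, Nupr1, Jdp2, Fgf21 and Vldlr). They were found in 2 of 6 amino acid transporters (Slc7a11 and Slc1a4), in 1 of 9 serine, one-carbon, proline and sulfur enzymes (Pycr1), in 1 of 8 endoplasmic reticulum stress genes outside the ATF4 arm (Herpud1) and in 0 of 10 genes upstream of Atf4. A match describes the letters of the window and is not a measured binding site.

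Libraries within a group differed in tissue markers and in RNA profile, and the part of these differences in the levels of the 10 genes was not tested. Recovered reads on genes ran from 14815592 to 18303302 per library. The 9 adipocyte markers were all detected in each library. Their mean log2(FPKM + 1) was 4.30 in SF_HPD 2 and ran from 7.95 to 9.52 in the other 12 libraries. Adipoq, the adipokine adiponectin, was at 26.1 FPKM in SF_HPD 2, against 666 to 4231 FPKM elsewhere. The 12 liver markers had a mean of 9.20 in SC_ConD 2 and 8.0 in SC_ConD 3, against 1.26 to 4.11 in the other 11 libraries, none of them at 0 in SC_ConD. B cell and lymph node markers were at 4.79 to 6.06 in SF_HPD 4 and 5 and SF_ConD 1, 4 and 5, and at 0.28 to 1.42 in the rest. Skeletal muscle markers were at 10.23 in SF_HPD 4 and 7.26 in SC_ConD 3, and at no more than 2.97 in the others. In SF_HPD 1 and 4, SF_ConD 3 and SC_ConD 1 the levels leaned toward long transcripts (Spearman rho of 0.48 to 0.56 between a gene's deviation and its length), and in the others rho ran from -0.44 to 0.03. In whole tissue, fewer cells of a type and less RNA per cell cannot be told apart.

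Among the regulators, Atf4 itself (ENSMUSG00000042406, chromosome 15, 80255184 to 80257541, plus strand, on GRCm38 as the table lists it) was abundant and varied little. It was at 58.6, 95.5, 70.5, 45.5 and 105 FPKM in SF_HPD, at 74.4, 72.7, 66.4, 52.4 and 62.5 FPKM in SF_ConD and at 44.7, 67.3 and 99.8 FPKM in SC_ConD. The 5 SF_ConD libraries lay inside the ranges of both other groups. The means were 75.1 ± 25.0 FPKM in SF_HPD, 65.7 ± 8.83 FPKM in SF_ConD (SD, n = 5 each) and 70.6 ± 27.7 FPKM in SC_ConD (SD, n = 3). Over the 13 libraries its highest level was 2.36 times its lowest, and 16.0% of the genes tested had a smaller SD of log2(FPKM + 1). The 4 libraries that leaned toward long transcripts (SF_HPD 1 and 4, SF_ConD 3 and SC_ConD 1) included its 2 lowest values, and the part of that lean in its level was not tested.

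Ddit3 (ENSMUSG00000025408, chromosome 10, 127290774 to 127296288, plus strand) encodes CHOP, a transcription factor induced by ATF4 that promotes cell death under lasting stress. It was at 5.25, 37.7, 14.9, 5.14 and 14.1 FPKM in SF_HPD, at 15.6, 13.4, 9.40, 8.43 and 13.8 FPKM in SF_ConD and at 8.24, 31.8 and 12.6 FPKM in SC_ConD. The highest library of all was SF_HPD 2 and the next was SC_ConD 2, while the 2 lowest were SF_HPD 4 and SF_HPD 1, so SF_HPD spanned the whole range. The 3 libraries at 5.14 to 8.24 FPKM were all among the 4 that leaned toward long transcripts. Its gene overlaps Mars on the other strand, whose mean was 15.4 FPKM, and the sources used here do not state the strand setting of the counting, so reads of the shared stretch cannot be assigned with certainty.

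Trib3 (ENSMUSG00000032715, chromosome 2, 152337422 to 152344032, minus strand) encodes a pseudokinase that binds ATF4 and restrains it. It was at 7.38, 0, 5.27, 5.15 and 3.85 FPKM in SF_HPD, at 3.98, 5.39, 4.87, 5.40 and 5.73 FPKM in SF_ConD and at 11.4, 6.59 and 13.8 FPKM in SC_ConD. In the deposited FPKM the SF_ConD libraries lay within a narrow band and all below the lowest SC_ConD library. In SF_HPD 2 not a single read was recovered for Trib3, where 3 reads, the upper limit that a count of 0 allows, would be 0.163 FPKM. That library also had the lowest adipocyte markers, whose part in this value was not tested.

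Sesn2 (ENSMUSG00000028893, chromosome 4, 132492032 to 132510501, minus strand) encodes a leucine sensor that restrains the growth kinase complex mTORC1. It was at 12.0, 3.16, 3.27, 3.52 and 4.33 FPKM in SF_HPD, at 2.32, 5.80, 7.29, 5.57 and 4.53 FPKM in SF_ConD and at 7.03, 5.21 and 5.97 FPKM in SC_ConD. SF_HPD 1 stood above all other libraries, and the other 4 SF_HPD libraries lay below each SC_ConD library. SF_HPD 1, SF_ConD 3 and SC_ConD 1, the highest library of each group, all leaned toward long transcripts. SF_HPD 4 leaned that way too and was at 3.52 FPKM. The part of that lean in the Sesn2 level was not tested.

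**Figure D1:**
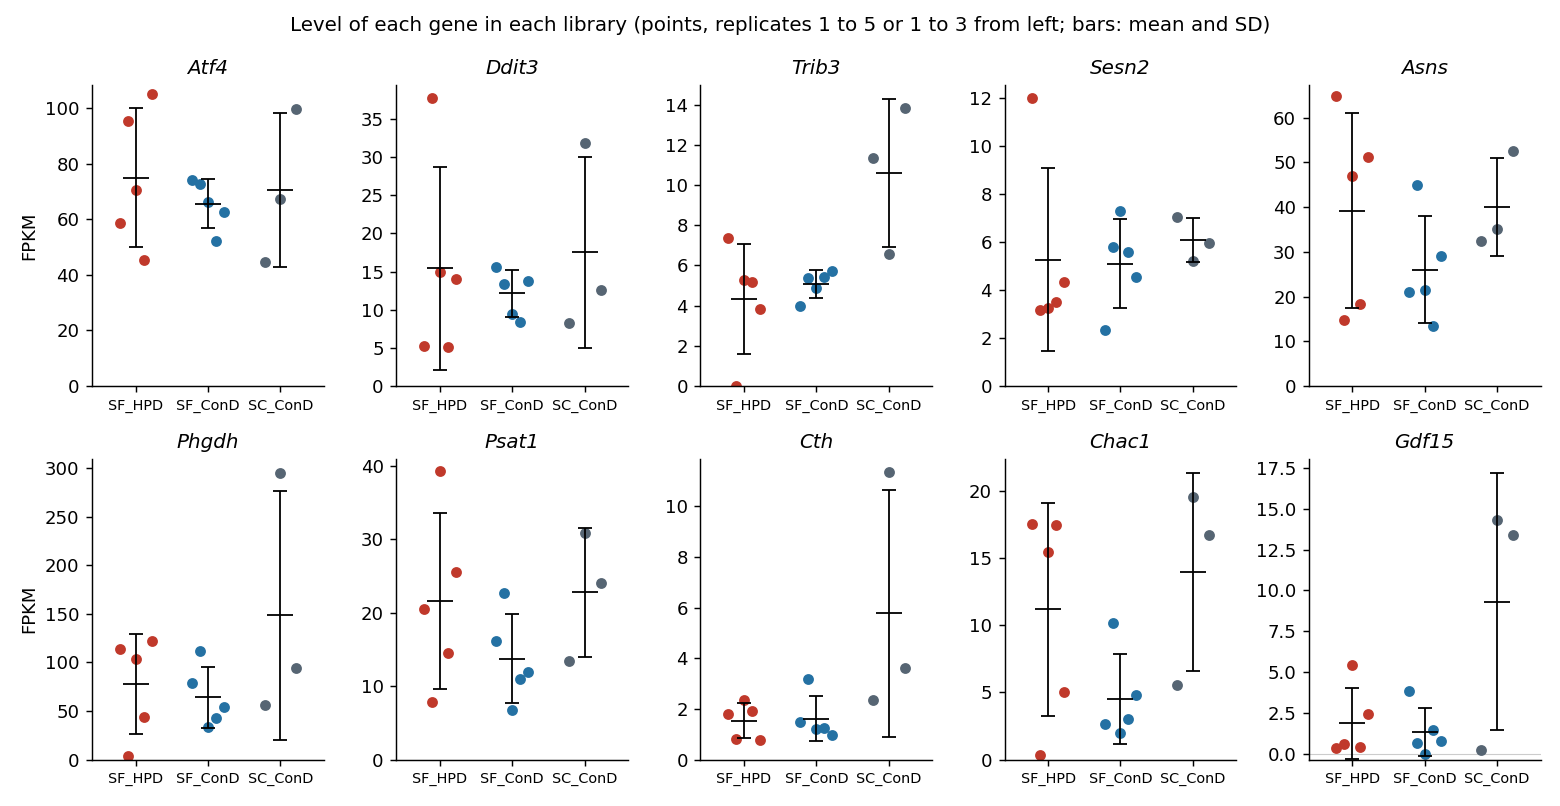
FPKM of the 10 genes in each of 13 libraries, with SF_HPD in red, SF_ConD in blue and SC_ConD in grey, and black bars for the group mean and SD. Each panel has its own linear axis. Trib3 was at 6.59 to 13.8 FPKM in SC_ConD and no higher than 7.38 FPKM elsewhere, and the points of most other genes overlap between the groups.

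The enzymes of amino acid synthesis were mostly abundant in this fat pad and differed severalfold between mice of one group. Asns (ENSMUSG00000029752, chromosome 6, 7675169 to 7693254, minus strand), the enzyme that makes asparagine, was at 64.8, 14.7, 46.9, 18.3 and 51.3 FPKM in SF_HPD, at 21, 44.9, 21.5, 13.4 and 29.0 FPKM in SF_ConD and at 32.5, 35.1 and 52.6 FPKM in SC_ConD. Of the SF_HPD libraries 3 lay near 50 FPKM or above and the other 2 below 20 FPKM, while 4 of the 5 SF_ConD libraries lay below each SC_ConD library. The means were 39.2 ± 21.8 FPKM in SF_HPD, 26.0 ± 12.0 FPKM in SF_ConD (SD, n = 5 each) and 40.1 ± 10.9 FPKM in SC_ConD (SD, n = 3).

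Phgdh and Psat1 catalyse the first and second steps of serine synthesis from a glycolytic intermediate. Phgdh (ENSMUSG00000053398, chromosome 3, 98313170 to 98339990, minus strand) had the highest mean level of the 10 genes, 88.9 FPKM over all libraries. It was at 114, 4.09, 104, 43.7 and 122 FPKM in SF_HPD, at 78.7, 112, 33.4, 43.3 and 54.5 FPKM in SF_ConD and at 56.3, 295 and 94.3 FPKM in SC_ConD. The level in SC_ConD 2 was 72.2 times that in SF_HPD 2, where 88 reads were recovered, and 92.0% of the genes tested had a smaller SD over the libraries. Psat1 (ENSMUSG00000024640, chromosome 19, 15904678 to 15947337, minus strand) was at 20.5, 7.79, 39.4, 14.5 and 25.6 FPKM in SF_HPD, at 16.2, 22.8, 6.77, 11 and 11.9 FPKM in SF_ConD and at 13.4, 30.9 and 24.1 FPKM in SC_ConD. Both genes were low in SF_HPD 2 and in SF_ConD 3 and high in SC_ConD 2, and neither separated any pair of groups.

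Cth (ENSMUSG00000028179, chromosome 3, 157894248 to 157925077, minus strand) encodes cystathionine gamma-lyase, which releases cysteine at the end of the transsulfuration pathway and is abundant in liver. It had the lowest mean of the 10 genes, 2.54 FPKM. It was at 1.81, 0.828, 2.34, 1.91 and 0.795 FPKM in SF_HPD, at 1.47, 3.19, 1.2, 1.26 and 0.966 FPKM in SF_ConD and at 2.34, 11.3 and 3.62 FPKM in SC_ConD. The value of SC_ConD 2 was far above the rest, and the next, SC_ConD 3, was close to SF_ConD 2. SC_ConD 2 and 3 were the libraries with high liver markers, and SC_ConD 1 was level with the highest SF_HPD library. The part of liver transcripts in the Cth level was not tested.

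Chac1 (ENSMUSG00000027313, chromosome 2, 119351229 to 119354381, plus strand) encodes an enzyme that degrades glutathione and is a sensitive transcript of the ATF4 response. It was at 17.5, 0.353, 15.5, 17.5 and 5.05 FPKM in SF_HPD, at 2.62, 10.1, 1.98, 3.02 and 4.78 FPKM in SF_ConD and at 5.58, 19.5 and 16.7 FPKM in SC_ConD. Of the SF_ConD libraries 4 of 5 lay below each SC_ConD library, while SF_HPD held 3 libraries near the upper end and SF_HPD 2 with only 5 recovered reads. The means were 11.2 ± 7.94 FPKM in SF_HPD, 4.51 ± 3.32 FPKM in SF_ConD (SD, n = 5 each) and 13.9 ± 7.38 FPKM in SC_ConD (SD, n = 3).

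Gdf15 (ENSMUSG00000038508, chromosome 8, 70629393 to 70632456, minus strand) encodes a hormone that stressed tissues secrete and that lowers food intake through a receptor in the hindbrain. It was at 0.354, 0.624, 5.44, 0.407 and 2.45 FPKM in SF_HPD, at 3.82, 0.651, 0, 1.47 and 0.752 FPKM in SF_ConD and at 0.224, 14.3 and 13.4 FPKM in SC_ConD. SC_ConD held both the 2 highest levels and, with 7 reads in SC_ConD 1, one of the lowest. No read was recovered in SF_ConD 3, where 3 reads would be 0.0847 FPKM. The 2 high libraries were again those with high liver markers, whose part was not tested.

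**Figure D2:**
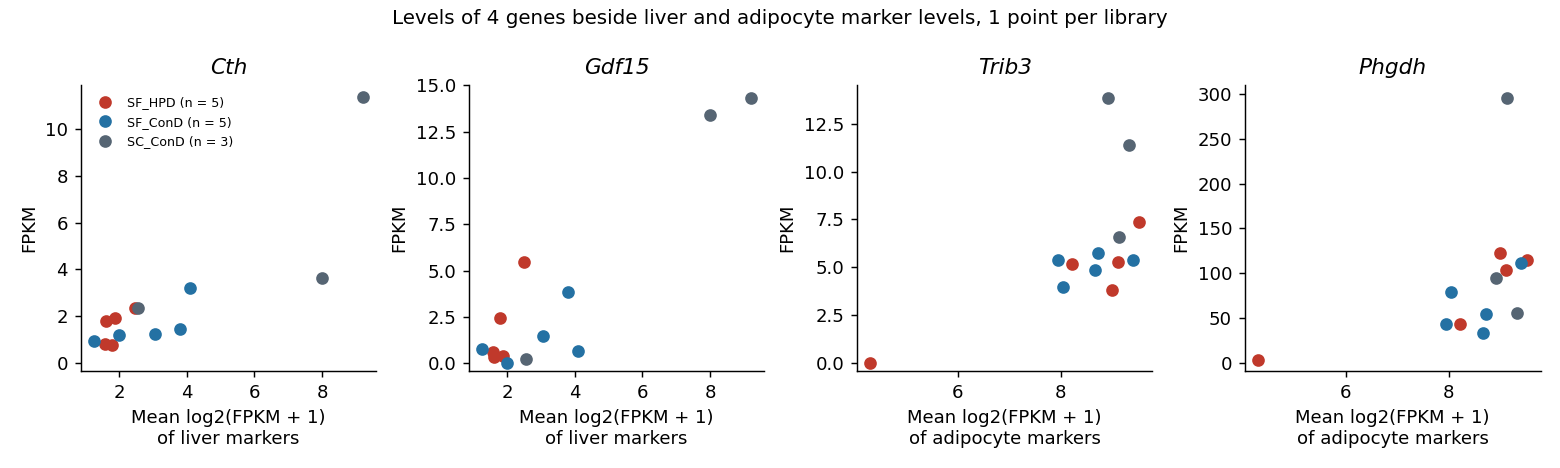
FPKM of Cth and Gdf15 against the mean log2(FPKM + 1) of 12 liver markers, and of Trib3 and Phgdh against that of 9 adipocyte markers, with 1 point per library and the groups in colour. SC_ConD 2 and 3 lie apart at liver marker means of 9.20 and 8.0, and SF_HPD 2 lies apart at an adipocyte marker mean of 4.30.

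Seen over all 10 genes, mean FPKM was highest in SC_ConD for 9 and in SF_HPD for Atf4, and lowest in SF_ConD for 8 and in SF_HPD for Cth and Trib3. The SD of log2(FPKM + 1) over the libraries was above that of the median gene (0.65) for 8 of the 10, the exceptions being Atf4 and Sesn2. In the deposited FPKM SF_HPD 2 was the lowest library of all for 3 genes, Phgdh, Chac1 and Trib3. It was the highest for Ddit3, and its Atf4 level was among the highest. SC_ConD 2 was the highest library for Phgdh, Chac1, Gdf15 and Cth. In the map of deviations from each gene's mean these 2 libraries stand out more than any group does. With each library's own total as divisor, SF_HPD 2 stayed lowest for those 3 genes and SC_ConD 2 highest for Phgdh and Cth. On that scale Chac1 was highest in SF_HPD 1 (21.5, against 11.4 in SC_ConD 2) and Gdf15 in SC_ConD 3 (10.1, against 8.37). In SF_HPD 2 Atf4 was then at 45.8, among the lower libraries, and Ddit3 at 18.1, against 18.6 in SC_ConD 2.

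**Figure D3:**
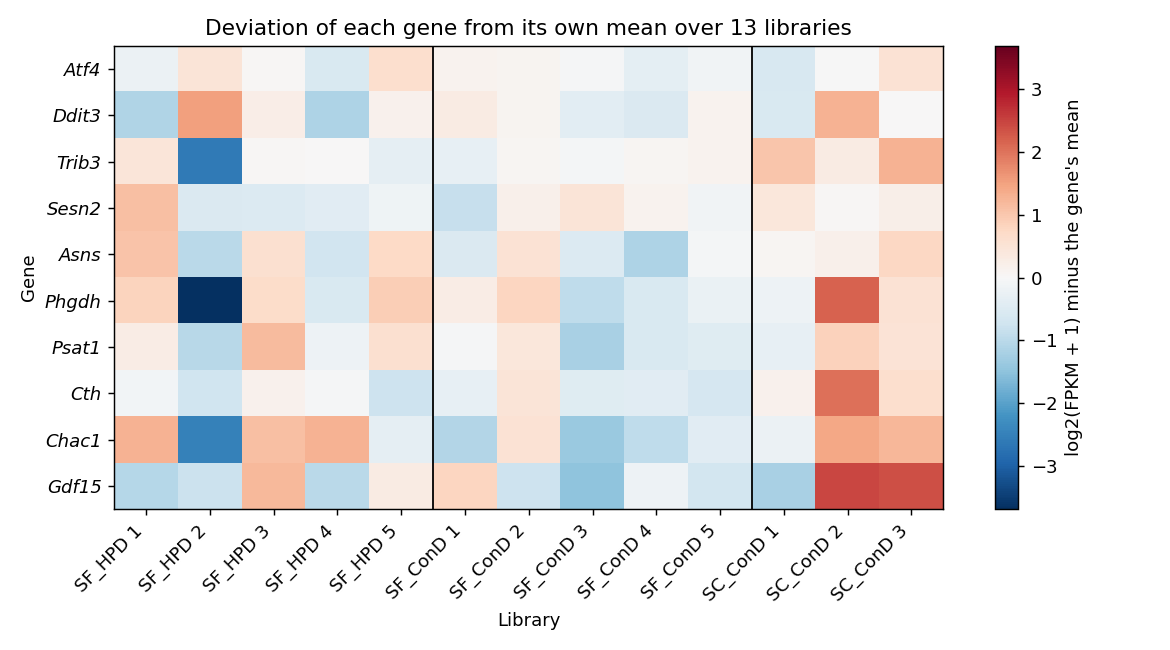
Deviation of log2(FPKM + 1) from the gene's own mean over 13 libraries, with genes in rows and libraries in columns, red above and blue below the mean, and lines between the groups. The column of SF_HPD 2 holds the deepest blue fields (Phgdh, Trib3 and Chac1), and Gdf15, Phgdh and Cth are deep red in SC_ConD 2.

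The effect of the high-protein diet was read from SF_HPD against SF_ConD, both with fragmented sleep. No gene of the 10 passed the test. On the log scale 6 had a higher and 4 a lower mean, a split that became 5 and 5 under median-of-ratios and quantile scaling and with each library's own total as divisor, where Ddit3 turned negative. Their median log2 fold change was 0.07, against 0.01 over all genes tested. Chac1, the glutathione-degrading enzyme, had a log2 fold change of 0.81 (SE 0.69, 95% confidence interval -0.67 to 2.29), Psat1 of 0.54 (SE 0.43) and Asns of 0.47 (SE 0.45). Trib3 had a log2 fold change of -0.47 (SE 0.48), Phgdh of -0.23 (SE 0.82), Sesn2 of -0.06 (SE 0.35) and Cth of -0.03 (SE 0.37), while Phgdh and Sesn2 had a higher mean FPKM in SF_HPD than in SF_ConD. Gdf15 (0.20, SE 0.71), Atf4 (0.14, SE 0.34) and Ddit3 (0.01, SE 0.50) completed the list. The intervals therefore still hold changes of more than 1 log2 unit in at least 1 direction for 7 of the 10 genes. Limma with Benjamini-Hochberg adjustment called 0 of the 14421 genes (0%), and each of the 10 had an adjusted p of 1.0. The unadjusted p was under 0.05 for 0 of the 10 and for 1.89% of all genes, and 0 of the 10 and 0.458% of all genes had no overlap between the groups.

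Several of these values moved when SF_HPD 2, the library with the low adipocyte markers, was left out. Without it, 9 of the 10 fold changes were positive, Ddit3 was at -0.39 (SE 0.42) and the median was 0.20. Chac1 then had a log2 fold change of 1.47 (SE 0.49, unadjusted p = 0.0106, limma adjusted p = 0.991), Phgdh of 0.60 (SE 0.54), Trib3 of 0.06 (SE 0.25) and Cth of 0.07 (SE 0.39). A higher median was not particular to leaving out SF_HPD 2. The median was 0.22 without SF_HPD 1 and 0.29 without SF_HPD 4, but -0.01 without SF_HPD 3 and 0.03 without SF_HPD 5. The adjusted p of Chac1 ran from 0.939 to 1.0 over all alternatives. Without SF_HPD 2, its levels in SF_HPD (17.5, 15.5, 17.5 and 5.05 FPKM) still overlapped those of SF_ConD, whose highest library, SF_ConD 2, was at 10.1 FPKM.

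SF_ConD against SC_ConD asked what sleep fragmentation changed on chow. All 10 genes had a lower mean on the log scale in SF_ConD, except that Atf4 turned positive under TPM, median-of-ratios and quantile scaling and with each library's own total as divisor. The median log2 fold change of the 10 was -0.80, against -0.03 over all genes tested, and no gene of the 10 passed the test. The stress hormone gene Gdf15 had a log2 fold change of -1.67 (SE 0.82, 95% confidence interval -3.43 to 0.09), Chac1 of -1.45 (SE 0.79) and Cth of -1.19 (SE 0.42, 95% confidence interval -2.11 to -0.28). Phgdh (-0.97, SE 0.94), Trib3 (-0.89, SE 0.55), Psat1 (-0.72, SE 0.49) and Asns (-0.68, SE 0.52) followed. Ddit3 (-0.32, SE 0.58), Sesn2 (-0.27, SE 0.40) and Atf4 (-0.04, SE 0.39) lay closest to 0. Limma with Benjamini-Hochberg adjustment called 0 of 14421 genes (0%), and adjusted p was 0.791 for Cth and 0.874 to 1.0 for the other 9. An unadjusted p under 0.05 was found for 1 of the 10 genes, Cth, and for 5.74% of all genes. Its limma p was 0.0143 before adjustment. Trib3 was the 1 gene of the 10 with no overlap, lower in SF_ConD (3.98 to 5.73 FPKM) than in SC_ConD (6.59 to 13.8 FPKM), as were 1.92% of all genes. With each library's own total as divisor the 2 groups overlapped for Trib3. SC_ConD 2 was then at 3.86, inside the SF_ConD range of 3.38 to 5.96.

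The lower values were not spread evenly over the 3 SC_ConD mice. Without SC_ConD 2 and 3, the libraries with high liver markers, 6 of the 10 fold changes were negative and the median was -0.24, with the spread of the lone SC_ConD 1 taken to be that of the other groups. Gdf15 then had a log2 fold change of 0.73 (SE 0.91), Phgdh of 0.06 (SE 1.43) and Cth of -0.41 (SE 0.50), while Trib3 was at -1.03 (SE 0.87). Without SC_ConD 1, the reverse choice, Gdf15 had a log2 fold change of -2.87 (SE 0.67, limma adjusted p = 0.0652) and Cth of -1.59 (SE 0.44, limma adjusted p = 0.165). Over all alternatives the adjusted p ran from 0.0652 to 1.0 for Gdf15, from 0.165 to 1.0 for Cth and from 0.525 to 1.0 for Trib3. Without SC_ConD 1, 194 of the 14253 genes tested were called, 188 of them lower in SF_ConD, and none of the 10 was among them. At so small a share this absence says little about the 10. The Trib3 value without the liver-rich libraries rests on SC_ConD 1 alone, which leaned toward long transcripts. The part of liver transcripts in the Trib3 difference was not tested. Without SF_HPD 2, which enters through the shared estimate of spread, the log2 fold change of Trib3 stayed at -0.89, with an SE of 0.28 (unadjusted p = 0.00751, limma adjusted p = 0.607).

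**Figure D4:**
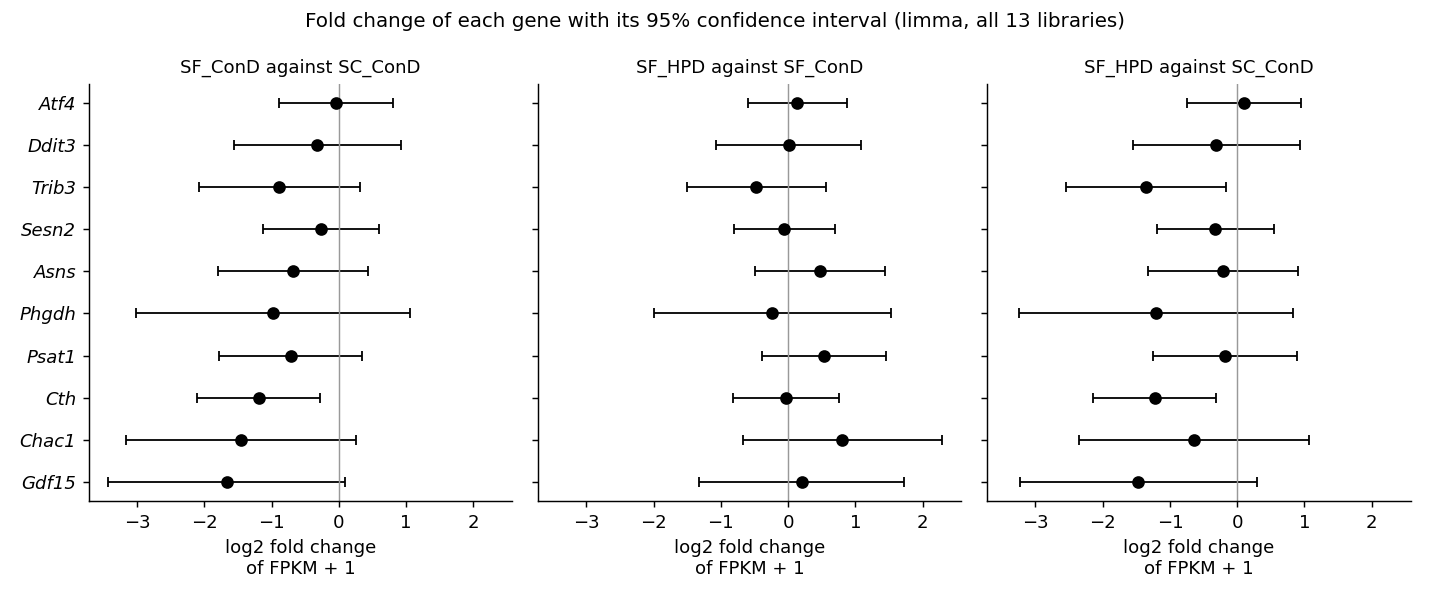
Log2 fold change of FPKM + 1 (points) with its 95% confidence interval (bars) for the 10 genes in the 3 comparisons. All 10 points lie left of 0 for SF_ConD against SC_ConD on this scale (Atf4 at -0.04 turned positive under other scalings), and the interval excludes 0 for Cth there and for Cth and Trib3 in SF_HPD against SC_ConD, before adjustment for the number of genes tested.

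SF_HPD against SC_ConD set mice with fragmented sleep on the high-protein diet against mice with normal sleep on chow, so sleep and diet differ together. This comparison shares its SC_ConD libraries with SF_ConD against SC_ConD, and its values are therefore not independent of them. In SF_HPD, 9 of the 10 genes had a lower and Atf4 a higher mean on the log scale, although Asns and Psat1 turned positive under TPM rescaling. The median log2 fold change was -0.48 against 0.02 over all genes, and no gene passed. Gdf15 had a log2 fold change of -1.47 (SE 0.82), Trib3 of -1.36 (SE 0.55), Cth of -1.23 (SE 0.42) and Phgdh of -1.21 (SE 0.94). Chac1 (-0.64, SE 0.79), Sesn2 (-0.33, SE 0.40), Ddit3 (-0.31, SE 0.58), Asns (-0.21, SE 0.52), Psat1 (-0.18, SE 0.49) and Atf4 (0.10, SE 0.39) lay closer to 0. Limma with Benjamini-Hochberg adjustment called 0 of 14421 genes (0%), with an adjusted p of 0.839 for Cth and 1.0 for the other 9. An unadjusted p under 0.05 was found for 2 of the 10 genes, Cth and Trib3, and for 3.68% of all genes. The limma p before adjustment was 0.0122 for Cth and 0.0289 for Trib3. Cth was the 1 gene with no overlap, as were 0.853% of all genes in that direction, but SF_HPD 3 and SC_ConD 1 were both at 2.34 FPKM, so the groups met.

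As in the comparison on chow, several values moved with the SC_ConD libraries. Without SC_ConD 2 and 3, 4 of the 10 fold changes were negative, the median was 0.21, Cth was at -0.44 (SE 0.50) and Gdf15 at 0.93 (SE 0.91), and Trib3 was at -1.51 (SE 0.87). Without SF_HPD 2 the log2 fold change of Trib3 was -0.83 (SE 0.29, unadjusted p = 0.0143, limma adjusted p = 0.925) that of Chac1 was 0.02 (SE 0.56) and that of Phgdh was -0.38 (SE 0.61). Without SC_ConD 1, 195 of the 14253 genes tested were called, 192 of them lower in SF_HPD and none of the 10 among them. Again the share is too small for this absence to say much about the 10. Gdf15 was at -2.67 (SE 0.67, limma adjusted p = 0.0964) without SC_ConD 1. Over all alternatives the adjusted p ran from 0.0964 to 1.0 for Gdf15 and from 0.573 to 1.0 for Trib3.

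None of the genes in 6 further lists of the wider pathway passed the adjusted limma test in any comparison. The list of 13 genes upstream of Atf4 held the kinases of eIF2, the subunits of its exchange factor eIF2B and those of its phosphatase. Eif2s1 and Impact completed it. The median log2 fold change of the 13 was 0.04 in SF_HPD against SF_ConD, -0.03 in SF_ConD against SC_ConD and -0.04 in SF_HPD against SC_ConD. Eif2b3, a subunit of eIF2B, was at 3.76, 3.53, 6.10, 2.43 and 5.66 FPKM in SF_HPD, at 4.48, 4.83, 1.76, 3.22 and 4.24 FPKM in SF_ConD and at 3.11, 12.8 and 10.7 FPKM in SC_ConD, where SC_ConD 2 and 3 stood above all others. Its log2 fold change in SF_ConD against SC_ConD was -0.94 (SE 0.42, unadjusted p = 0.0426, limma adjusted p = 0.861).

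Of 12 further regulators and secreted proteins of the response, 10 were tested, since the hormone genes Fgf21 and Adm2 were too low. A positive fold change was found for 3 and a negative one for 7 in SF_HPD against SF_ConD (median -0.13). In SF_ConD against SC_ConD, 2 were positive and 8 negative (median -0.43), with the same split in SF_HPD against SC_ConD (median -0.46). Nupr1, a stress-induced chromatin protein, was at 11, 38.5, 56.1, 7.75 and 32.9 FPKM in SF_HPD, at 31.7, 48.4, 33.4, 20.2 and 41.4 FPKM in SF_ConD and at 23.4, 94.9 and 93.6 FPKM in SC_ConD. SC_ConD 2 and 3 again stood above the other 11 libraries, and SC_ConD 1 did not. Stc2, a secreted glycoprotein, had a log2 fold change of -1.19 (SE 0.57, unadjusted p = 0.0568, limma adjusted p = 1.0) in SF_HPD against SF_ConD.

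The 12 aminoacyl-tRNA synthetases, which load amino acids onto transfer RNAs, had positive fold changes for 9 and negative ones for 3 in SF_HPD against SF_ConD (median 0.15). In SF_ConD against SC_ConD, 3 were positive and 9 negative (median -0.26), and in SF_HPD against SC_ConD the split was the same (median -0.11). Eprs, which loads glutamate and proline, was at 7.96, 1.63, 3.14, 9.52 and 3.30 FPKM in SF_HPD, at 2.02, 3.50, 4.49, 3.57 and 5.12 FPKM in SF_ConD and at 6.53, 6.91 and 6.56 FPKM in SC_ConD. Its SF_ConD libraries lay below its SC_ConD libraries without overlap, which held for 2 of the 12 (Eprs and Yars) and for 1.92% of all genes. The log2 fold change there was -0.73 (SE 0.42, unadjusted p = 0.107, limma adjusted p = 0.910), and the 2 SF_HPD libraries above SC_ConD were those that leaned toward long transcripts.

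Of 10 enzymes of serine, one-carbon, proline and sulfur amino acid metabolism, 8 were tested. Cbs, which carries out the step of transsulfuration before Cth, was at 6.46, 0.795, 4.14, 2.62 and 4.07 FPKM in SF_HPD, at 6.72, 8.62, 7.94, 4.51 and 6.64 FPKM in SF_ConD and at 6.30, 17.9 and 13.1 FPKM in SC_ConD. SF_HPD 2, the library with the low adipocyte markers, was the lowest, and SF_HPD 1 stood above the lowest library of each other group. SC_ConD 2 and 3, the libraries with high liver markers, were the highest, and SC_ConD 1 lay inside the range of SF_ConD. The part of either marker list in the Cbs level was not tested. Its log2 fold change was -0.89 (SE 0.38, unadjusted p = 0.0349, limma adjusted p = 1.0) in SF_HPD against SF_ConD and -1.58 (SE 0.44, unadjusted p = 0.00313, limma adjusted p = 0.448) in SF_HPD against SC_ConD. Gpt2, the mitochondrial alanine aminotransferase, had a log2 fold change of -1.0 (SE 0.46, unadjusted p = 0.0473, limma adjusted p = 1.0) in SF_HPD against SC_ConD. The medians of the 8 were -0.15 in SF_HPD against SF_ConD, 0.08 in SF_ConD against SC_ConD and 0.00 in SF_HPD against SC_ConD.

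Among 7 tested amino acid transporters of the response, Slc1a4, a carrier of neutral amino acids, was at 1.05, 1.0, 0.838, 0.428 and 0.488 FPKM in SF_HPD, at 0.404, 0.546, 0.240, 0.353 and 0.576 FPKM in SF_ConD and at 1.31, 1.18 and 0.874 FPKM in SC_ConD. Its SF_ConD libraries lay below its SC_ConD libraries without overlap, which held for 2 of the 7 (Slc1a4 and Slc6a9) and for 1.92% of all genes. The highest SF_ConD library was at 0.576 FPKM for Slc1a4 and 0.590 FPKM for Slc6a9. Both genes thus passed the filter of 1 FPKM only through the other groups, so lower values in SF_ConD were in part set by the filter. The log2 fold change of Slc1a4 in SF_ConD against SC_ConD was -0.58 (SE 0.23, unadjusted p = 0.0270, limma adjusted p = 0.861). The list medians were 0.30 in SF_HPD against SF_ConD, -0.08 in SF_ConD against SC_ConD and -0.19 in SF_HPD against SC_ConD.

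Endoplasmic reticulum stress genes outside the ATF4 arm had negative fold changes for 9 of 10 in SF_ConD against SC_ConD (median -0.26) and for 9 of 10 in SF_HPD against SC_ConD (median -0.21), and for 4 of 10 in SF_HPD against SF_ConD (median 0.01). Hspa5, the chaperone BiP, was at 73.6, 18.2, 29.9, 53.8 and 29.2 FPKM in SF_HPD, at 39.8, 30.9, 38.6, 55.2 and 36.1 FPKM in SF_ConD and at 51.0, 151 and 77.0 FPKM in SC_ConD. SC_ConD 2 and 3 were the highest libraries, and SC_ConD 1 lay within the range of both other groups. The log2 fold change of Hspa5 was -1.08 (SE 0.48, unadjusted p = 0.0422, limma adjusted p = 0.861) in SF_ConD against SC_ConD. That of Hyou1, a partner chaperone, was -1.27 (SE 0.47, unadjusted p = 0.0173, limma adjusted p = 0.805).

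Across the 13 libraries the serine enzymes varied together. Of the 45 pairs among the 10 genes, 5 had an adjusted p under 0.05 for Pearson's r of log2(FPKM + 1), in permutation tests with Benjamini-Hochberg adjustment over the 45 pairs, and all 5 lay among Asns, Psat1, Phgdh and Chac1. The share of such pairs among all genes was not computed, so the count cannot be set against it. With the adipocyte marker mean, r was 0.87 for Phgdh, 0.71 for Chac1, 0.68 for Asns and 0.56 for Psat1. SF_HPD 2 lay far below the other libraries in that mean, and r without it was not computed. With the macrophage marker mean, r was 0.52, 0.29, 0.20 and 0.68 in the same order. With the liver marker mean it was 0.53, 0.45, 0.24 and 0.48. The part of tissue content in the 5 pairs was not tested. For Psat1 and Phgdh r was 0.80 (permutation p = 0.000310, adjusted p = 0.0139) and Spearman's rho was 0.89 (permutation p = 0.000120, adjusted p = 0.00540). Without the 2 libraries farthest from the median of Psat1 (SF_HPD 3 and SF_ConD 3), r was 0.90, and within groups it was 0.87. For Asns and Psat1 r was 0.75 (permutation p = 0.00389, adjusted p = 0.0350) and rho was 0.73 (permutation p = 0.00679, adjusted p = 0.0623), and r was 0.66 without SF_ConD 4 and SF_HPD 2.

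Chac1 varied with the same enzymes, and of the 5 pairs that of Chac1 and Phgdh lost most when the 2 farthest libraries were left out. Its r with Psat1 was 0.77 (permutation p = 0.00212, adjusted p = 0.0318) and its rho was 0.70 (permutation p = 0.00925, adjusted p = 0.0623). Without SF_HPD 2 and SC_ConD 2, that r was 0.67. For Chac1 and Phgdh, r was 0.76 (permutation p = 0.00163, adjusted p = 0.0318), rho was 0.69 (permutation p = 0.0111, adjusted p = 0.0623), and r without the same 2 libraries was 0.50. For Asns and Phgdh r was 0.69 (permutation p = 0.00364, adjusted p = 0.0350), rho was 0.80 (permutation p = 0.00185, adjusted p = 0.0416), and r without SF_ConD 4 and SF_HPD 2 was 0.60.

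The relations of the Atf4 transcript to its targets depended on the scaling and on SF_HPD 2, and no pair with Atf4 had an adjusted p under 0.05. On the deposited scale its r with the other 9 genes ran from -0.36 for Trib3 to 0.62 for Ddit3. With each library divided by its own total of recovered reads, it ran from -0.27 for Ddit3 to 0.59 for Asns, with 0.42 for Psat1 and 0.34 for Trib3. The 5 pairs among Asns, Psat1, Phgdh and Chac1 had an r of 0.76 to 0.85 on that scale. Without SF_HPD 2, on the deposited scale, the r of Atf4 ran from -0.18 for Sesn2 to 0.57 for Gdf15, and was 0.53 for Asns against 0.29 with that library. For Atf4 and Ddit3, r was 0.62 (permutation p = 0.0234, adjusted p = 0.0956) and rho was 0.70 (permutation p = 0.0106, adjusted p = 0.0623), and r was 0.67 without SF_HPD 5 and SC_ConD 1. For Atf4 and Phgdh r was -0.04 (permutation p = 0.893, adjusted p = 0.893) and rho was 0.29 (permutation p = 0.338, adjusted p = 0.468), with an r of -0.20 without SF_HPD 5 and SC_ConD 1 and of 0.46 without SF_HPD 2. Adipocyte markers were low in SF_HPD 2, where Asns, Psat1, Phgdh and Chac1 were all low, and their part in these correlations was not tested.

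**Figure D5:**
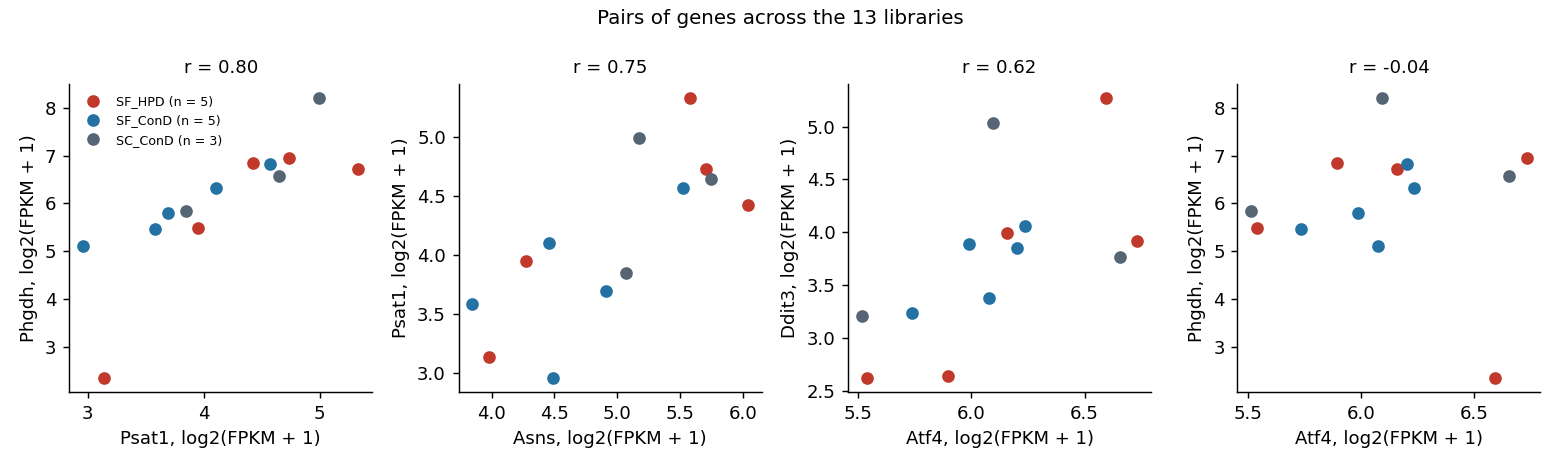
Log2(FPKM + 1) of 4 pairs of genes in 13 libraries, 1 point per library, with SF_HPD in red, SF_ConD in blue and SC_ConD in grey, and Pearson's r above each panel. The points of Psat1 and Phgdh rise together (r = 0.80), and SF_HPD 2 lies apart at the bottom right of the panel of Atf4 and Phgdh (r = -0.04).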

How the data were processed

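RNA of inguinal fat from 13 mice was analysed from the authors' deposited table of FPKM values per gene, with gene lengths and coordinates. The submitters' processing notes name CASAVA, HISAT2 2.0.5, featureCounts 1.5.0-p3 and the build mm8, without role or order. GENCODE M21 held 54495 of the 54532 identifiers, 53585 with identical start and end, and coordinates are therefore read as GRCm38. The sources used here do not state the strand setting, annotation or normalization step. Groups follow the treatment label, and libraries are numbered as titled. The labels speak of individual mice, so each library was taken as 1 animal.

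Deposited FPKM values times gene length were whole multiples of a step per library for 100% of values (tolerance 0.05), which gave back the reads. The divisor implied by the FPKM values was 0.479 to 1.23 times a library's own total. It tracked median-of-ratios size factors computed from the recovered reads, with relative ratios of 0.947 to 1.03 over the 13 libraries. Limits from a count of 0 (3 reads) cover counting error only.

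Group means of log2(FPKM + 1) over all 13 libraries were fitted by limma 3.58.1 (R 4.3.3), eBayes running with trend and robust. Tests were two-sided, with Benjamini-Hochberg adjustment at a threshold of 0.05 over the 14421 genes with 3 or more libraries at 1 FPKM or above. Fold changes on this scale understate the changes of low genes. The steps were tested on simulated data. Correlations used 100000 permutations. Alternatives were a pseudocount of 0.1, no filter, a mean FPKM of at least 5, TPM, median-of-ratios and quantile scaling, own totals, limma-voom on recovered reads, eBayes without both options, fits of only the groups compared, the replicate number as a block, and each library left out. Fits without lymphoid-rich or liver-rich libraries, and with the length trend as a covariate, were added after seeing the data.

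Members and lists were chosen with earlier results of these data known. All 10 members are named, and from each pathway list the genes with the 3 smallest p were open to naming. No library pair was as alike as sampling noise (lowest chi-square per degree of freedom 72.1). Same-numbered libraries of SF_HPD and SC_ConD deviated together (correlations 0.711, 0.333 and 0.191), which met the criterion for pairing (above 0.1), although the labels name no shared source. SF_HPD 3 correlated more with an SC_ConD library of another number. SF_HPD 1 and SC_ConD 1, the pair at 0.711, both leaned toward long transcripts. Whether the mice were paired cannot be told from this.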

Additional observations from a re-analysis of the deposited data

Results flagged for a closer look

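Trib3 was at 0 FPKM in SF_HPD 2, while the next SF_HPD library was at 3.85 FPKM. On the scale of log2(FPKM + 1) this gap was 0.742 of the group's whole range, where 0.71 is the limit for 5 libraries. Sesn2 was at 12.0 FPKM in SF_HPD 1, with the next at 4.33 FPKM and a gap of 0.783 of the range on the same log scale. The 10 genes gave 20 groups of 5 libraries to examine, and chance flags about 1 in 20. SF_HPD 2 had an adipocyte marker mean of 4.30, against 7.95 to 9.52 in the other libraries, and SF_HPD 1 a length trend of 0.56. The part of either in these values was not tested.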

How the results depend on the processing

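The 30 fold changes of the 10 genes were computed under 27 alternatives, except that Cth and Gdf15 were not tested at a mean FPKM of at least 5. None of the 10 genes was called where it was tested. Of 804 alternative values, 750 kept their direction. Part of these could not turn. A change of filter or eBayes options, a fit of only the groups compared, or leaving out a library of the uncompared group gives the same fold change. TPM rescaling moved the median of all genes by 0.18 (SF_ConD against SC_ConD) and 0.23 (SF_HPD against SC_ConD), own totals by 0.19 and 0.12, and limma-voom by 0.16 (SF_ConD against SC_ConD) and -0.12 (SF_HPD against SF_ConD).

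In SF_ConD against SC_ConD, Atf4 turned to 0.20 with TPM, 0.016 with median-of-ratios, 0.25 with quantile scaling, 0.23 with own totals, 0.094 with limma-voom, 0.037 with the replicate block and 0.051 without the lymphoid-rich libraries, where Sesn2 was at 0.095. Without the liver-rich libraries, Atf4 was at 0.53, Gdf15 at 0.73, Ddit3 at 0.47 and Phgdh at 0.060. In SF_HPD against SF_ConD, Ddit3 turned to -0.017 with a pseudocount of 0.1, -0.0038 with TPM, -0.029 with median-of-ratios, -0.17 with quantile scaling, -0.12 with own totals and -0.17 with limma-voom, and Cth to 0.080 with TPM. In SF_HPD against SC_ConD, TPM gave 0.048 for Asns and 0.088 for Psat1. Without the liver-rich libraries Asns was at 0.050, Gdf15 at 0.93, Chac1 at 0.38, Ddit3 at 0.48 and Psat1 at 0.47 there. Apart from the libraries left out, the cause was not tested.

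Leaving out 1 library gave ranges that crossed 0. In SF_ConD against SC_ConD they were -0.33 to 0.24 for Atf4 and -0.72 to 0.20 for Ddit3. In SF_HPD against SF_ConD they were -0.00080 to 0.30 for Atf4, -0.14 to 0.15 for Cth, -0.71 to 0.059 for Trib3, -0.17 to 0.51 for Gdf15, -0.39 to 0.27 for Ddit3, -0.55 to 0.60 for Phgdh and -0.36 to 0.068 for Sesn2. In SF_HPD against SC_ConD they were -0.19 to 0.38 for Atf4, -0.44 to 0.072 for Asns, -1.16 to 0.022 for Chac1, -0.71 to 0.20 for Ddit3 and -0.50 to 0.11 for Psat1. Other ranges stayed on 1 side of 0 but moved by over 1.5 times. Phgdh was at -1.49 to -0.31 in SF_ConD against SC_ConD (nearest 0 without SC_ConD 2) and -1.73 to -0.38 in SF_HPD against SC_ConD (nearest 0 without SF_HPD 2). Cth was at -1.59 to -0.64 and -1.62 to -0.68 there, both nearest 0 without SC_ConD 2, and Sesn2 in SF_ConD against SC_ConD at -0.39 to -0.064 (nearest 0 without SF_ConD 1). Gdf15 was at -2.87 to -1.05 in SF_ConD against SC_ConD and -2.67 to -0.85 in SF_HPD against SC_ConD, Psat1 at -1.04 to -0.47 in SF_ConD against SC_ConD, and Trib3 at -1.64 to -0.83 and Sesn2 at -0.63 to -0.22 in SF_HPD against SC_ConD. In SF_HPD against SF_ConD, Asns was at 0.24 to 0.76, Chac1 at 0.53 to 1.47 and Psat1 at 0.28 to 0.83.

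Genes called over the table were 0 in each comparison under each setting, the replicate block included, except when 1 library was left out. The counts then ran from 0 to 194 in SF_ConD against SC_ConD, 0 to 195 in SF_HPD against SC_ConD (both highest without SC_ConD 1) and 0 to 1 in SF_HPD against SF_ConD (without SF_HPD 5, which also gave 1 in SF_HPD against SC_ConD). At an unadjusted p under 0.05 limma-voom counted 678 genes in SF_ConD against SC_ConD, 263 in SF_HPD against SF_ConD and 484 in SF_HPD against SC_ConD. Same-numbered libraries of the other 2 comparisons did not all deviate together. Genes under 10 reads, such as Chac1 in SF_HPD 2 and Gdf15 in SC_ConD 1, have the least precise levels.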

Other observations

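The deposited scaling changes which mice look high in Atf4. Values recomputed with a library's own recovered total as the divisor of the FPKM put Atf4 at 71.8, 45.8, 74.5, 53.0 and 69.1 in SF_HPD, at 63.1, 66.9, 77.9, 57.8 and 45.7 in SF_ConD and at 47.7, 39.4 and 75.3 in SC_ConD. SF_HPD 2, which stood at 95.5 in the deposited FPKM, lay among the lower libraries on this scale, and SC_ConD 2, at 67.3 in the deposited FPKM, was the lowest. These were the libraries in which the implied divisor was smallest beside the library's own total, 0.479 in SF_HPD 2 and 0.585 in SC_ConD 2. Phgdh in SF_HPD 2 was the lowest of the 13 libraries on both scales, at 4.09 FPKM as deposited and 1.96 on own totals, and Ddit3 there was at 37.7 FPKM as deposited and 18.1 on own totals, against 18.6 in SC_ConD 2.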
